A study of Homo sapiens with 6 samples.

Results

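Matricellular proteins are secreted into the extracellular matrix, where they mostly do not build fibres themselves but bind collagens, growth factors and cell surface receptors and so set how cells attach, spread and move. The group described here holds 10 genes, which were looked up by name among the 29185 genes of the deposited table, and each name was found exactly once. They are the SPARC family members SPARC, SMOC1 and SPOCK1, the pair POSTN and TGFBI with their shared fasciclin (FAS1) domains, the thrombospondins THBS1 and THBS2, the tenascin TNC, the osteopontin gene SPP1, and FN1, which encodes fibronectin and is strictly a fibre-forming adhesive glycoprotein. The group was chosen by its function and by its values in the comparison described below, in which SPARC and POSTN were almost lost and FN1 was higher. All values of the 10 genes in this comparison are therefore a description, and no p-value is given for them. Many of these genes are known as targets of TGF-beta signalling and as products of stromal or mesenchymal cells, and in ovarian cancer fibronectin, periostin (POSTN) and TGFBI are known from peritoneal spread.

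The cells were SKOV3, an established human ovarian cancer cell line. Silenced cells (sh-KLF5) carried a lentiviral pLKO.1-EGFP-Puro construct against KLF5, a zinc finger transcription factor of epithelial cells, and stable cells were selected with puromycin. The controls, called sh-NC here, are labelled NC with the genotype WT, and whether they carried an empty or non-targeting construct is not stated in the sources used here. Poly(A) RNA of 3 libraries per group was sequenced. How many constructs or stable lines were used, and whether the libraries came from separate cultures, is not stated either, so p-values measure only the spread between these libraries, which may be technical. KLF5 itself stood at 34.8% of its control mean after silencing (log2 difference -1.53 ± 0.12, standard error, with a limma adjusted p = 2.47e-07), so that transcript was reduced and not lost. Depth was 15852319 to 17543896 reads per library, and a count of 0 allows up to 3 reads. The libraries of sh-KLF5 lay farther apart than those of sh-NC, with a median coefficient of variation over all tested genes of 15.4% against 10.05% in the controls.

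All 10 tested ovarian carcinoma and epithelial markers had reads. The summed level of these markers ranged from 688.3 to 822.8 RPKM (reads scaled to exonic length in kilobases and to the total of the library) in sh-NC and from 379.1 to 491.1 RPKM in sh-KLF5. Most of this sum came from KRT7 and KRT8 (475.0 and 192.2 RPKM in sh-NC). KRT7, the most abundant of them, and KRT8 and MUC16, both called lower, are markers of simple or Müllerian epithelium. Of the 10 markers 2 were called lower and 0 higher, against 3.37% and 1.9% of all tested genes. With the adjusted p alone, 5 of the 10 were lower and 0 higher, against 6.85% and 6.04% of all tested genes. Besides KRT8 and MUC16 these were KRT7 (log2 difference -0.78, limma adjusted p = 0.00112), KRT18 (-0.64, adjusted p = 0.00343) and MSLN (-0.71, adjusted p = 0.00868). PAX8 (log2 difference -0.25, limma adjusted p = 0.407), EPCAM (-0.03, adjusted p = 0.954) and CDH1 (-0.15, adjusted p = 0.645) did not pass the adjusted p. KRT19 was the exception among the keratins, with at most 0.441 RPKM in any library. Among 8 fibroblast markers, 5 were tested. DCN, PDGFRA and THY1 were called lower (3 of 5, against 3.37% of all tested genes). FAP was called higher (1 of 5, against 1.9%), while LUM was not called. PDGFRA and THY1, with at most 2 reads in any silenced library, passed the filter through sh-NC alone, so that a difference was a condition of their being tested. The summed level of the fibroblast markers ranged from 7.81 to 13.1 RPKM in sh-NC and from 4.19 to 10.4 RPKM in sh-KLF5, so the groups overlapped. Most of this sum came from LUM (mean 6.81 RPKM in sh-NC and 5.24 in sh-KLF5), so the overlap of the sum does not describe the called markers. PRRX1 had at most 6 reads in any library. Of the endothelial and leukocyte lists only PECAM1 and CD14 had enough reads to be tested, neither was called, and PTPRC, the pan-leukocyte marker, had no read in sh-NC. Since SPARC and POSTN are also made by stromal cells, the fibroblast values belong beside their fall, and their part in it was not tested. In bulk RNA, fewer cells of a type and less RNA per cell cannot be told apart.

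The promoter sequences are shown because the silenced gene encodes a factor that binds GC-rich DNA. KLF factors recognise CACCC and GC boxes, so the letters CACCC and GGGCGG were searched on both strands in the 250 bases before each RefSeq start (GRCh38.p14), together with TGANTCA, the AP-1 site. RefSeq promoter entries were found for 9 of the 10 genes, SPOCK1 being the other. CACCC was found in 4 of the 9 windows and in 54.7% of all 35116 promoter windows of the same length, and GGGCGG in 5 of the 9 and in 42.6% of all. TGANTCA was found only in the POSTN window among the 9, and in 6.57% of all windows. The stretches below run 5′ to 3′ on the gene's own strand, the capitals mark matches, and bases that lie in annotated exons are left out except in SPARC, whose window lies wholly inside an exon of a longer transcript and is shown by 30 bases around its match.
POSTN, minus strand, chr13:37598845-37599018: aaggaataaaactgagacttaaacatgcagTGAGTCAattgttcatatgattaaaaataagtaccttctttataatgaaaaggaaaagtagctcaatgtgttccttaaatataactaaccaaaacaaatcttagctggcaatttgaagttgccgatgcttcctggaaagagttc
SPARC, minus strand, chr5:151686985-151687014: ggagggaccacgGGGTGgaggggagataga
FN1, minus strand, chr2:215436173-215436252: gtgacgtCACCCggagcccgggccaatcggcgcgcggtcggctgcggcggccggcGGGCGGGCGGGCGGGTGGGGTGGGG
THBS1, plus strand, chr15:39580829-39581078: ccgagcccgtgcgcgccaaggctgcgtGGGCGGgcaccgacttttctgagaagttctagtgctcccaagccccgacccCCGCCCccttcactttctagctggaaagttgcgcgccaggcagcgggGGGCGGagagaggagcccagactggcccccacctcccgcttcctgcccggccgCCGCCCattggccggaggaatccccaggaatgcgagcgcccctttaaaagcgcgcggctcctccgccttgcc

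The windows of POSTN and FN1 were unlike each other in these letters. The whole POSTN window was 36.4% G and C and held neither CACCC nor GGGCGG, whereas the whole FN1 window was 76.4% G and C and held 3 CACCC and 6 GGGCGG matches, in which 4 pairs overlapped, 1 of them a CACCC with a GGGCGG, and 3 of the 6 lie in the stretch shown. SPARC held 1 CACCC match, 87 to 83 bases before its start, and THBS1 held 4 GGGCGG matches. TGFBI held 2 CACCC matches, which overlapped, and 3 GGGCGG matches. A match describes the letters of this window and is not a binding site, and a window without one says nothing about the factor.

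Between silenced and control cells, a gene was called when limma on log2(normalized count + 1) gave it an adjusted p under 0.05 together with a fold change of more than 1 in size on the log2 scale. Of the 10 genes, 8 had enough reads to be tested. SPARC and POSTN passed the filter through their sh-NC libraries alone, so that a difference was a condition of their being tested. Under this call, 2 of the 8 tested genes were lower, SPARC and POSTN, against 3.37% of all 15803 tested genes. Only SPOCK1 was called higher, against 1.9% of all. With the adjusted p alone and no fold threshold, TGFBI and FN1 joined SPOCK1 among the higher genes (3 of 8, against 6.04% of all tested genes), and SPARC and POSTN remained the lower ones (2 of 8, against 6.85%). The same genes were those whose libraries did not overlap between the groups, 3 higher (against 15.4%) and 2 lower (against 15.9%). Since the group was chosen on this comparison, nothing is read from these shares.

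**Figure D1:**
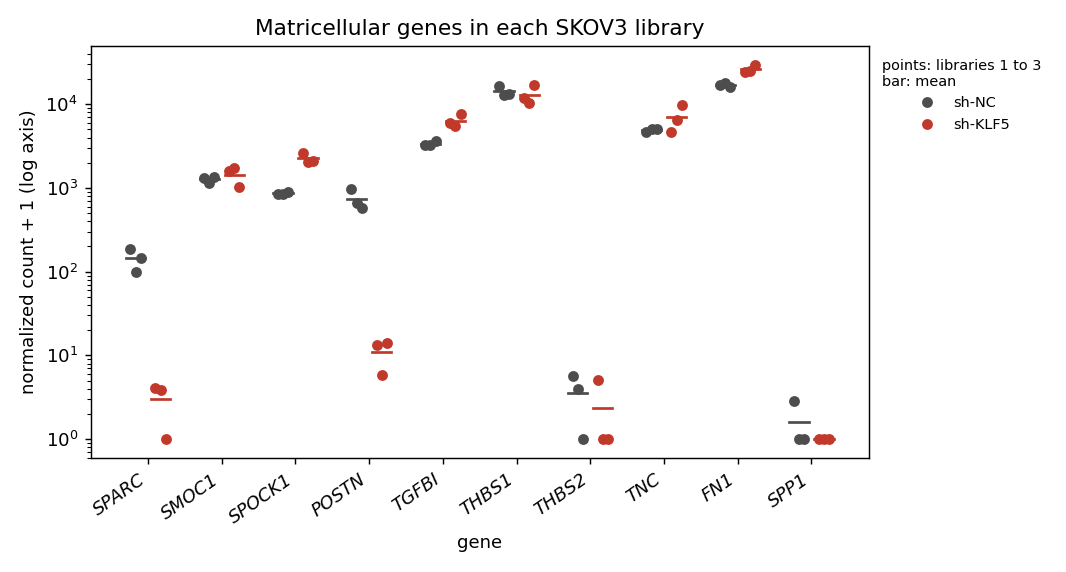
Normalized counts plus 1 (vertical log axis) of the 10 genes (horizontal axis) in each library, with sh-NC in grey and sh-KLF5 in red, points for libraries 1 to 3 and a bar for the mean. SPARC and POSTN drop to 0 to 13 reads in sh-KLF5, SPOCK1, TGFBI and FN1 lie wholly above their controls, and THBS2 and SPP1 have at most 5 reads in every library.

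SPARC (ENSG00000113140, chromosome 5, 151661096 to 151687165, minus strand) encodes osteonectin, a collagen-binding glycoprotein that takes part in collagen assembly and counteracts cell spreading. The controls held 201, 100 and 135 reads of it (libraries 1, 2 and 3), whereas the silenced cells held 3, 3 and 0. The groups were far apart, and every sh-KLF5 library was at or under the limit that a count of 0 allows. Summed over libraries and scaled by the size factors, 1.39% of the control level remained, with an exact 95% counting interval from 0.506% to 3.04% that covers counting error only. The fitted log2 fold change of -5.79 (standard error 0.51) depends on the pseudocount at such low counts, and it ranged from -7.14 to -4.39 over the other settings that tested it. Antisense to SPARC, the gene CLMAT3 shares 7.89% of its exonic bases and was not analysed here.

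POSTN (ENSG00000133110, chromosome 13, 37562583 to 37598844, minus strand) encodes periostin, which binds integrins and collagen and promotes collagen crosslinking. The controls had normalized counts of 976.7, 661.2 and 568.7, the silenced libraries 12.2, 4.85 and 13.03. Library 1 was the highest control, and the lowest control was still far above the highest silenced library. The control mean was 735.5 ± 213.9 (SD, n = 3) and the silenced mean 10.04 ± 4.51 (SD, n = 3). Of the summed control level 1.34% remained, with an exact 95% counting interval from 0.902% to 1.92%, and the log2 fold change was -6.12 (standard error 0.31). No exonic base of POSTN is shared with another annotated gene.

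TGFBI, the relative of POSTN with the same domain type, lay on the other side. TGFBI (ENSG00000120708, chromosome 5, 136028895 to 136063818, plus strand) encodes a TGF-beta-induced adhesion protein that binds collagens and integrins. The controls had normalized counts of 3217, 3299.96 and 3601, the silenced libraries 5933, 5559.8 and 7595. All silenced libraries were above all controls. The means were 3373 ± 202 and 6363 ± 1084 (SD, n = 3 each), and the log2 fold change of 0.90 (standard error 0.13) was just short of the fold threshold. Per length, POSTN stood at 22.6% to 43.4% of TGFBI within each sh-NC library and at 0.125% to 0.295% within each sh-KLF5 library.

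Of the 10 genes, the other SPARC family members, SPOCK1 and SMOC1, were not called lower. SPOCK1 (ENSG00000152377, chromosome 5, 136975298 to 137598379, minus strand) encodes testican-1, a secreted heparan and chondroitin sulphate proteoglycan. Control libraries had 848.2, 839.5 and 902.97 normalized counts and silenced libraries 2597, 2068 and 2101, so the lowest silenced library was above the highest control. The means were 863.6 ± 34.4 and 2255 ± 297 (SD, n = 3 each), a 2.61-fold difference (log2 fold change 1.38, standard error 0.12). SMOC1 (ENSG00000198732, chromosome 14, 69854131 to 70032366, plus strand), a basement membrane protein that binds calcium and modulates BMP signals, had 1317, 1139 and 1344 normalized counts in sh-NC and 1581, 1714 and 1032 in sh-KLF5. For SMOC1 the groups overlapped, because sh-KLF5 library 3 was the lowest of all libraries and the other silenced ones were the highest. Its log2 fold change was 0.16 (standard error 0.16) and ranged from 0.016 to 0.38 when a library was left out.

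FN1 and THBS1 were the most abundant of the 10 genes. FN1 (ENSG00000115414, chromosome 2, 215360440 to 215436172, minus strand) had 16852, 17786 and 16259 normalized counts in sh-NC and 24278, 24971 and 29712 in sh-KLF5. The control libraries were close together and all silenced libraries were above them. The means were 16966 ± 770 and 26320 ± 2957 (SD, n = 3 each), a 1.55-fold difference (log2 fold change 0.63, standard error 0.12) that did not reach the fold threshold. By level per length it ranked 517th of all genes in the controls and 282nd after silencing.

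THBS1 (ENSG00000137801, chromosome 15, 39581079 to 39599466, plus strand) encodes thrombospondin-1, which restrains angiogenesis, binds CD36 and CD47 and can activate latent TGF-beta. It had 16598, 12722 and 13399 normalized counts in sh-NC and 11932, 10249 and 16861 in sh-KLF5. The groups overlapped fully, with the highest value of all in sh-KLF5 library 3. Its log2 fold change of -0.15 (standard error 0.16) had no stable sign, being 0.00409 without sh-KLF5 library 2 and -0.35 without sh-KLF5 library 3. FSIP1 on the opposite strand shares 4.89% of its exonic bases, and that gene held 25 to 60 reads per library. Another antisense gene, AC037198.2, shares 4.49% and was not analysed here. THBS2, a close relative of THBS1, had 5, 3 and 0 reads in sh-NC and 4, 0 and 0 in sh-KLF5, too few for a fold or a test.

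TNC (ENSG00000041982, chromosome 9, 115019578 to 115118257, minus strand) encodes tenascin-C, an anti-adhesive protein of wounds and tumour stroma. It had 4640.5, 5090 and 5045 normalized counts in sh-NC and 4666, 6461 and 9877 in sh-KLF5. The controls were nearly equal, whereas the silenced libraries differed by more than the groups did, and library 1 of sh-KLF5 lay among the controls. Its coefficient of variation was 37.8% after silencing against 5.03% in the controls. The log2 fold change was 0.44 (standard error 0.20), and 0.16 without sh-KLF5 library 3, to which most of the difference in means belongs. DEC1 on the opposite strand shares 1.34% of the exonic bases of TNC and had 6 to 32 reads. SPP1, the gene of osteopontin, a ligand of CD44 and integrins, had 2 reads in sh-NC library 1 and none elsewhere, and a count of 0 allows up to 3 reads, or 0.171 to 0.189 CPM (reads scaled to the library total).

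**Figure D2:**
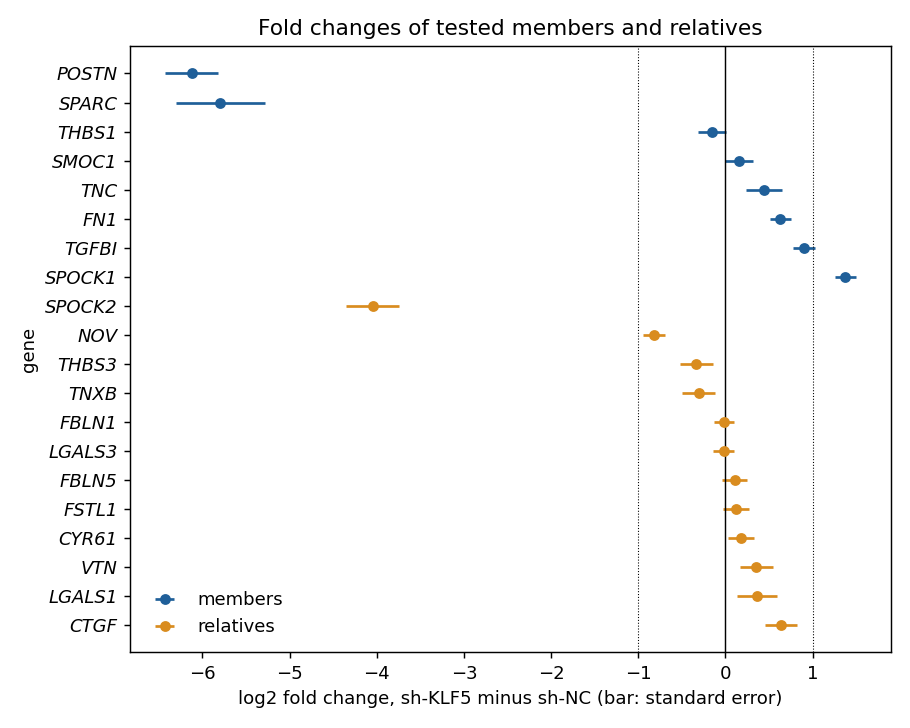
Log2 fold change of sh-KLF5 minus sh-NC (horizontal axis, bars are the standard error) for the 8 tested members in blue and for 12 tested relatives in orange (vertical axis), with dotted lines at 1 and -1. POSTN and SPARC lie near -6, SPOCK2 is the relative farthest from 0 at -4.05, and SPOCK1 alone lies above 1.

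Sh-KLF5 library 3 lay to one side of the other silenced libraries in several of the abundant genes, mostly within the range of all tested genes. Relative to the mean of the other silenced libraries on the log2 scale, it was higher by 0.85 for TNC, 0.61 for THBS1, 0.40 for TGFBI and 0.27 for FN1, and lower for SMOC1 (-0.67). Over all tested genes the 5th and 95th percentiles of the same difference were -0.70 and 0.61, so TNC lay beyond the upper one and THBS1 just past it. TGFBI, FN1 and SMOC1 lay within them. Over all genes with enough reads, sh-KLF5 library 1 was the farthest from the other silenced libraries. Its chi-square per degree of freedom was 26.4 to library 2 and 34.3 to library 3, against 11.6 between libraries 2 and 3. In sh-KLF5 library 1 the TNC difference was -0.78. Without library 3 the log2 fold change of TGFBI was 0.77 and that of FN1 0.54, and both libraries that were left still exceeded all controls.

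**Figure D3:**
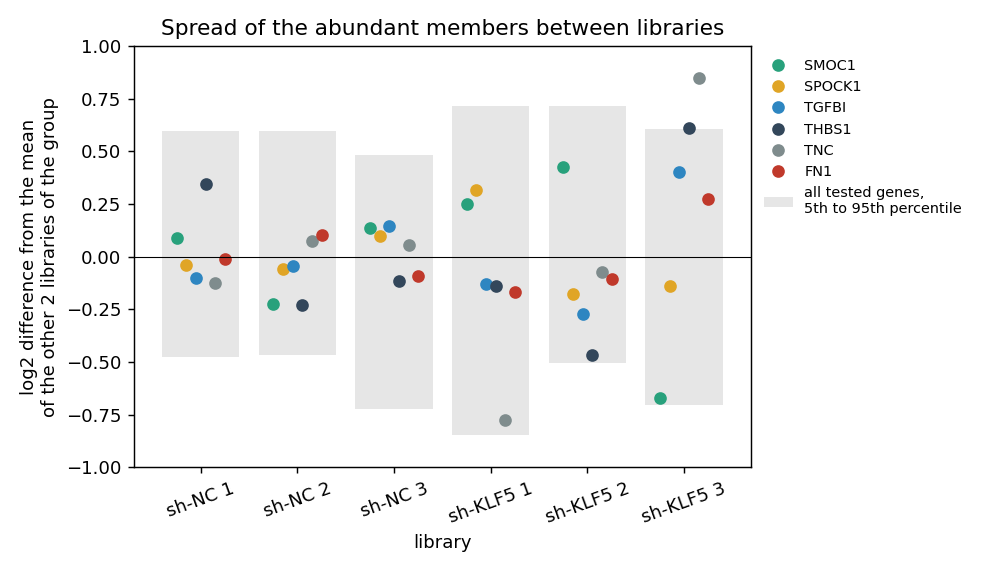
Log2 difference of each library from the mean of the other libraries of its group (vertical axis) for 6 abundant members (colours) in the 6 libraries (horizontal axis), on grey bars from the 5th to the 95th percentile of all tested genes. The points lie between -0.12 and 0.14 in sh-NC 3 and spread from -0.67 to 0.85 in sh-KLF5 3.

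Levels of different genes were compared per length in RPKM. In sh-NC the order was THBS1 (94.3 ± 14.4 RPKM, SD, n = 3), FN1 (59.4 ± 3.55), TNC (31.0 ± 1.44), TGFBI (26.2 ± 1.13), SMOC1 (17.6 ± 1.39), SPOCK1 (8.41 ± 0.19), POSTN (8.18 ± 2.47) and SPARC (1.79 ± 0.56). Neighbours in this order did not overlap between libraries, except SPOCK1 and POSTN. In sh-KLF5 the order was FN1 (92.5 ± 8.03 RPKM, SD, n = 3), THBS1 (86.2 ± 20.2), TGFBI (49.5 ± 6.99), TNC (44.1 ± 15.6), SPOCK1 (22.1 ± 3.04) and SMOC1 (20.2 ± 5.54), followed by POSTN (0.111 ± 0.048) and SPARC at 0 to 0.0388. There FN1 and THBS1 overlapped, as did TGFBI and TNC, and SPOCK1 and SMOC1.

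These lengths count all exonic bases, which is 17315 for FN1 with its 27 annotated transcripts and 9158 for THBS1. With the length of the longest transcript instead, an alternative chosen after the values were seen, FN1 and THBS1 stood level in sh-NC at 112.2 ± 6.70 and 111.1 ± 16.98 RPKM, and FN1 exceeded THBS1 in sh-KLF5 at 174.6 ± 15.2 against 101.5 ± 23.8 RPKM (SD, n = 3). The place of FN1 in the order thus depends on the length used. By the same length TGFBI stood above TNC in sh-NC without overlap, and in sh-KLF5 their libraries overlapped.

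The sum of the 10 genes was larger in sh-KLF5 despite the loss of POSTN and SPARC. Since the group was chosen partly by the values of FN1, POSTN and SPARC in this comparison, the sum and its parts are a description only. The sum came to 265.4, 239.2 and 236.2 RPKM in sh-NC and to 290.0, 291.7 and 362.4 RPKM in sh-KLF5, without overlap. Of this sum THBS1 made up 35.6% to 41.8% in sh-NC and 23.97% to 30.03% in sh-KLF5, and FN1 22.4% to 26.3% and 27.99% to 30.9%. TGFBI made up 9.50% to 11.6% and 15.2% to 16.1%, SPOCK1 3.14% to 3.65% and 5.51% to 8.82%, and POSTN 2.62% to 4.12% and 0.019% to 0.047%. The genes that fell were thus minor parts of the sum and SPARC the smallest of the 8 tested ones.

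**Figure D4:**
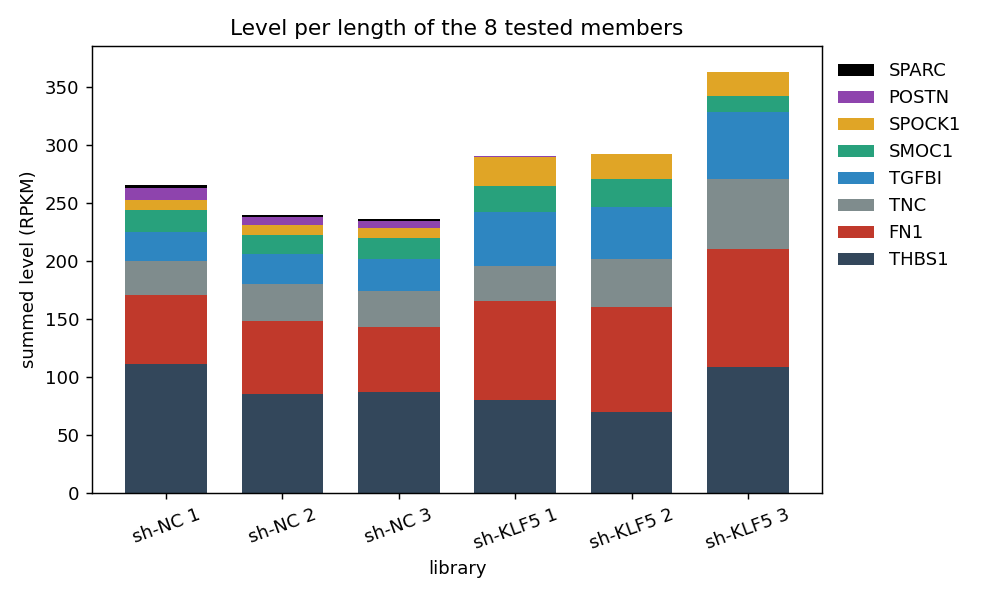
Level per length in RPKM (vertical axis, from 0) of the 8 tested members, stacked by gene, in each library (horizontal axis). The bars rise from 236.2 to 265.4 RPKM in sh-NC to 290.0 to 362.4 RPKM in sh-KLF5, with wider FN1 (red), TGFBI (blue) and SPOCK1 (yellow) parts and almost nothing visible of POSTN or SPARC.

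Genes outside the group with the most similar course were sought by the distance between log2 profiles over the 6 libraries, each centred on its own mean, and this measure is a description. Nearest to SPARC were CUBN (distance 0.95), SLC2A3 (1.14) and KLHL14 (1.43), which had at most 2 reads in any sh-KLF5 library. Among the 3 nearest to POSTN were MAB21L1 (1.05), with 95, 58 and 73 reads in the controls and 0, 0 and 1 after silencing, and LHX8 (1.11), with no read in any silenced library. Like SPARC and POSTN, these genes near them passed the filter through sh-NC alone, so that a difference was a condition of their being tested. Nearest to FN1 were ADCY7 (0.10), C17orf97 (0.14) and TANC2 (0.17).

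Other matricellular genes and paralogs of the 10 were examined next. Like the marker lists above, this list and those below were chosen with earlier results of these data known. Nothing is therefore read from the shares of any of them. Of 29 listed relatives 22 were in the table and 12 were tested, and their median log2 fold change was 0.043, against -0.0023 over all tested genes. Only SPOCK2 was called, and it was lower (1 of 12, against 3.37% of all tested genes), while 11 were not called. SPOCK2, likewise of the SPARC family, encodes testican-2, the paralog of the protein of SPOCK1. Control libraries had 224.4, 140.9 and 155.98 normalized counts of it and silenced libraries 13.2, 8.73 and 7.02 (log2 difference -4.05 ± 0.30, standard error). Like SPARC and POSTN it passed the filter through sh-NC alone, so no p-value is given for it. SPOCK2 was thus lower in every silenced library than in every control, and SPOCK1 higher. Among the CCN genes, NOV (CCN3) was lower without reaching the fold threshold (-0.82, adjusted p = 0.000362 from limma), CTGF (CCN2) was higher (0.64, adjusted p = 0.0312 from limma), and CYR61 (CCN1), the most abundant relative per length at 192.2 RPKM in sh-NC, differed by 0.18 (limma adjusted p = 0.48).

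The receptors to which these proteins bind were tested as well. Of 17 listed receptors 15 were in the table and 12 tested, and none was called by limma, by edgeR or by DESeq2. With an unadjusted p under 0.05 and no fold threshold, 5 were higher and 1 was lower, against 12.8% and 13.4% of all tested genes. At the adjusted p, 4 were higher and 0 lower, against 6.04% and 6.85%. These were ITGA5, which pairs with ITGB1 as the classical fibronectin receptor (log2 difference 0.80 ± 0.12, standard error, limma adjusted p = 0.000155), the hyaluronan and osteopontin receptor CD44 (0.61, adjusted p = 0.000985), the thrombospondin-1 receptor CD47 (0.50, adjusted p = 0.0284) and the vitronectin receptor subunit ITGB5 (0.42, adjusted p = 0.0213). ITGA5 had 3121, 3259 and 3494 normalized counts in sh-NC and 5206, 5747 and 6325 in sh-KLF5, without overlap. ITGB1 and ITGAV did not pass, with 0.10 (adjusted p = 0.623 from limma) and -0.12 (adjusted p = 0.678). SDC4, the most abundant receptor per length at 141.1 RPKM in sh-NC, had 0.25 (adjusted p = 0.185 from limma). The median over the 12 receptors was 0.18.

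Of the 14 genes of the TGF-beta pathway, all of which were tested, 2 were called and both were higher, against 1.9% of all tested genes. Of these, LTBP2, a latent TGF-beta binding protein homologue of microfibrils, had 607.1, 608.0 and 704.5 in sh-NC and 1701, 1659 and 1512 in sh-KLF5 (1.34, adjusted p = 1.01e-06 from limma). With the adjusted p alone, 7 of the 14 were higher and 0 lower, against 6.04% and 6.85% of all tested genes, and at an unadjusted p under 0.05 limma gave 8 higher and 1 lower, against 12.8% and 13.4%. The receptor TGFBR2 (0.96, adjusted p = 0.000156 from limma) and the ligand TGFB2 (0.65, adjusted p = 0.00246) were among them, while TGFB1, the most abundant per length, was not (0.23, adjusted p = 0.356). TGFBR2 lay at the fold threshold, and it was called as well without sh-NC library 1, sh-NC library 3 or sh-KLF5 library 3, which makes 3 called genes. The median over the list was 0.46. As with the other lists, nothing is read from these shares.

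Of 16 listed collagen and matrix partners 15 were in the table and 13 tested, of which 4 were called lower, 2 were called higher and 7 were not called, against 3.37% lower and 1.9% higher among all tested genes. With the adjusted p alone, 4 were higher and 4 lower, against 6.04% and 6.85%. COL5A2, a chain of the fibril-forming collagen V, had 763.5, 618.8 and 559.2 normalized counts in sh-NC and 64.2, 33.0 and 63.2 in sh-KLF5 (log2 difference -3.62 ± 0.23, standard error, limma adjusted p = 3.61e-08). The other collagen V chain on the list, COL5A1, was more abundant per length in sh-NC (19.4 against 5.27 RPKM) and went the other way without reaching the fold threshold (0.54, limma adjusted p = 0.00465). COL3A1 fell as well (-1.78, adjusted p = 5.67e-07 from limma), as did the microfibril gene FBN1 (-1.46, adjusted p = 0.00083). COL1A2 had 37, 25 and 20 reads in sh-NC and 0, 2 and 3 in sh-KLF5, so that its silenced libraries were at the limit of detection. It passed the filter through sh-NC alone, so no p-value is given for it. The other collagen I chain on the list, COL1A1, was not lower. It had 73, 65 and 52 reads in sh-NC and 114, 76 and 52 in sh-KLF5 (0.30, limma adjusted p = 0.539). The collagen VI chains COL6A1 (1.58, adjusted p = 5.18e-07 from limma) and COL6A2 (1.42, adjusted p = 4.19e-06), which share chromosome 21, rose together. COL6A3, the remaining collagen VI chain on the list, had 1, 2 and 0 reads in sh-NC and 0 in every sh-KLF5 library, and was not tested. SERPINH1, the collagen chaperone and the most abundant of the list per length, had 0.38 (adjusted p = 0.0443 from limma). The median of 0.26 was above 0 although more genes were called lower than higher.

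**Figure D5:**
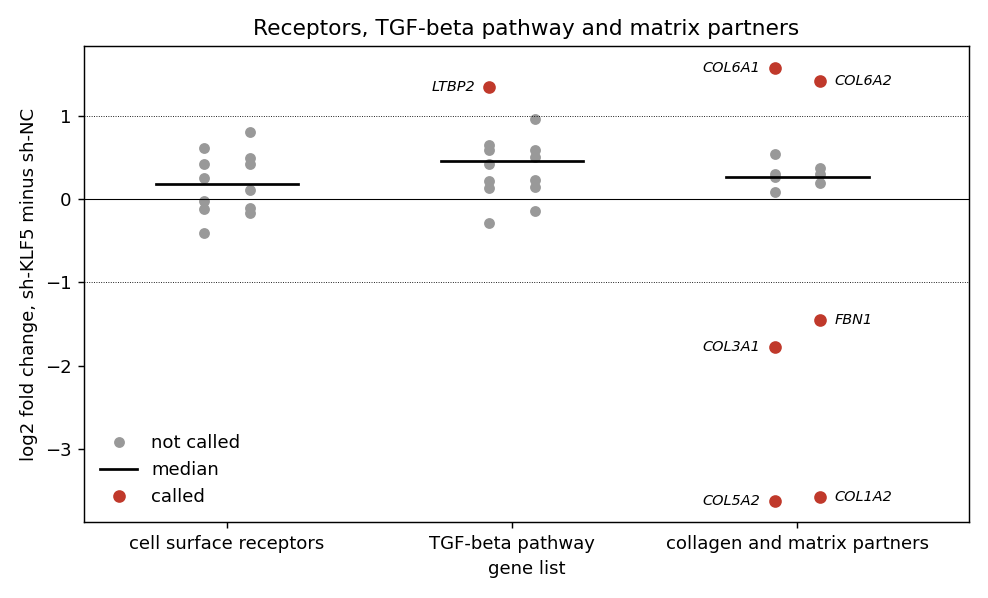
Log2 fold change of sh-KLF5 minus sh-NC (vertical axis) of tested genes of 3 lists (horizontal axis; 13 of the 14 TGF-beta pathway genes are drawn), with called genes in red and named, the other genes in grey, and the median over all tested genes of the list as a black bar. No receptor is called, LTBP2 is called higher, and the called matrix partners divide into COL6A1 and COL6A2 above 1 and COL1A2, COL3A1, COL5A2 and FBN1 below -1.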

How the data were processed

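The authors deposited 1 table in which each library has a normalized signal per gene, namely the reads counted on a gene divided by 1 size factor per library. The submitters' processing notes name HISAT2 2.0.5, featureCounts 1.5.0-p3, DESeq2 1.20.0 and hg38, and the strand setting is not given in the sources used here. Columns with the authors' own group means, fold changes and p-values were not used. Whole reads came back when the values of a library were divided by the smallest nonzero one (100% whole, tolerance 1e-06). Coordinates matched GENCODE release 29 for 29143 of 29185 genes, and gene lengths in the table equalled all exonic bases for the 10 genes.

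Genes were kept by edgeR's filterByExpr (4.0.16, minimum count 10), which left 15803, and compared with limma 3.58.1 (trend, robust) in R 4.3.3 on log2(normalized count + 1), with Benjamini-Hochberg adjustment over all of them. Fold changes on this scale understate the change of low genes. The count models of edgeR and of DESeq2 1.42.0 on recovered reads were alternatives. The code was tested on simulated counts.

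The named genes were the 10, KLF5, up to 6 called genes and the most abundant gene per list, the 3 nearest profiles of SPARC, POSTN and FN1, and antisense partners. The genes that passed the adjusted p without a call and untested marker genes were named after their values were seen. So were ITGB1, ITGAV, KRT19, PAX8, EPCAM, CDH1, COL1A1 and COL6A3. Some genes that the rule names are not reported here, and the counts include them. Genes and lists were chosen with earlier results of these data known. No library pair was a repeat, since the chi-square between libraries of a group was 4.66 to 34.3 times its degrees of freedom. Figures were drawn with matplotlib 3.10.9.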

Additional observations from a re-analysis of the deposited data

How the results depend on the processing

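The calls of SPARC, POSTN and SPOCK1 held with edgeR, DESeq2, library size only, TMM, pseudocounts of 0.1 and 5, no filter, unadjusted p-values, and each library left out, with 1 exception. Where every library had to hold at least 10 reads, SPARC, POSTN and SPOCK2 were no longer tested by construction, so 0 members were called lower and 0 relatives called, and 3.38% of tested genes were called against 5.28%. Unadjusted p-values keep every call by construction. Since the group was chosen on this comparison, the calls of its members under other settings are a description only. Without a filter, 2 relatives were called, STAB1 joining SPOCK2. The sign of THBS1 turned without sh-KLF5 replicate 2 (0.00409), with a range from -0.355 to 0.00409 over the libraries left out, and the cause was not tested. No receptor was called in any setting. The matrix partners lost the call of COL1A2 where every library had to hold 10 reads, and the TGF-beta list went from 2 to 3 called genes, TGFBR2 being added, without sh-NC replicate 1, sh-NC replicate 3 or sh-KLF5 replicate 3. Replicate numbers were not taken to pair libraries, as deviations of same-numbered libraries correlated at 0.059, 0.033 and 0.050. With the replicate block 5.66% of tested genes were called, and the calls of the members and lists were the same. With the longest transcript as length, FN1 stood at 101% of THBS1 in sh-NC, against 63.0%. At this depth THBS2 and SPP1 could not be compared.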
